A study of Mus musculus with 6 samples.

Results

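The 10 genes described here encode the natriuretic peptides and the machinery of cyclic GMP (cGMP) signalling. They are the peptide genes Nppa, Nppb and Nppc, the receptor genes Npr1, Npr2 and Npr3, the soluble guanylate cyclase genes Gucy1a1 and Gucy1b1, the cGMP-dependent kinase gene Prkg1 and the phosphodiesterase gene Pde5a. They were taken by symbol from the 22180 genes measured on whole-transcript mouse arrays, and all 10 had a value in all 6 libraries. The genes were selected on their log2 differences between these same libraries, so their levels and differences are a description and carry no test.

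Natriuretic peptides are hormones of the heart and the vessel wall that lower blood pressure and blood volume. The atrial peptide (ANP, from Nppa) and the B-type peptide (BNP, from Nppb) act on the receptor encoded by Npr1, and the C-type peptide (CNP, from Nppc) acts on the receptor encoded by Npr2. Both receptors carry a guanylate cyclase that makes cGMP inside the cell, whereas the receptor encoded by Npr3 mainly takes the peptides up for degradation. Nitric oxide raises cGMP by another route, through soluble guanylate cyclase, an enzyme of an alpha and a beta subunit. In the ventricle, Nppa is high before birth and declines after it, and both Nppa and Nppb are induced when the heart muscle is under load.

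Each of the 6 libraries was the only one of its group, so no spread between replicates could be measured and no test was made. The undifferentiated sample was induced pluripotent stem (iPS) cells, kept in serum with feeder cells and the cytokine LIF. For the 3 differentiated cultures, iPS cells were grown for 5 days in suspension as embryoid bodies and then plated on gelatin. The plated cells received either 1% DMSO or NRG-1 at 100 ng/ml, or the combination, and were taken at day 7 of differentiation. DMSO is a solvent used to start differentiation, and NRG-1 is neuregulin 1, a growth factor that acts through ERBB receptors. The other libraries were labelled cardiomyocytes from the neonatal and from the adult mouse heart. All 6 samples carry the labels strain DBA/2J and female. A differentiated culture with neither agent was not analysed here, so a difference of a culture from iPS cells holds differentiation and agent together. The sources used here do not say how the cardiomyocytes were isolated, whether animals were pooled or which iPS line was used.

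The sex label and the cell type label of the heart-derived libraries were checked against marker genes. The 3 Y-linked genes Eif2s3y, Kdm5d and Uty had log2 expression of at least 6.17 in both heart-derived libraries and of at most 4.06 in the 4 libraries of the iPS line, although every sample is labelled female. Xist, which silences 1 X chromosome in female cells, was at 8.78 in the neonatal and 3.39 in the adult library. Of 22 cardiomyocyte markers, 3 were at least 2-fold higher in the neonatal library than in iPS cells and 1 in the adult library. With the median level of 8 housekeeping genes set equal in all libraries (the housekeeping shift), these counts were 13 and 3. The neonatal count thus depends on the scaling. Of all genes counted, 13% were this much higher in the neonatal and 13.1% in the adult library, and 30.4% and 26.4% with the shift. Gene by gene, the median difference of the housekeeping genes from iPS cells was -0.35 (neonatal) and -0.20 (adult) as deposited. After the shift it was 0.31 and 0.34. In the cultures it went from -0.22, -0.30 and -0.11 to 0.50, 0.24 and 0.46 with DMSO, NRG-1 and both agents. By this measure the shift overshot, so counts with it lean towards genes higher than in iPS cells. Below the median of all values were 7 of the 22 cardiomyocyte markers in iPS cells, 3 in the neonatal and 8 in the adult library. Tnnt2, cardiac troponin T, was at 6.35 in iPS cells, 9.32 with DMSO, 8.5 with NRG-1, 9.32 with both agents, 9.76 in the neonatal and 8.22 in the adult library, highest in the neonatal one. Myh6, the main heart muscle myosin of the adult mouse, was at 5.82 in iPS cells, 7.04 with DMSO, 5.93 with NRG-1, 7.03 with both agents, 6.47 in the neonatal and 5.05 in the adult library. All 14 fibroblast markers were at least 2-fold higher in both heart-derived libraries than in iPS cells. Both libraries are called the neonatal and the adult library below, after their labels.

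Promoter sequence is shown for 3 of the genes whose levels set the libraries apart: Nppa and Nppb, which are next to each other in the genome but differed in the libraries where they were high, and Gucy1b1, whose level moved with that of its neighbour Gucy1a1. The sequences are from RefSeq on build GRCm38.p6 and run 5′ to 3′ on the strand of the gene. Both strands were searched. Capitals mark matches to the GATA factor motif GATA, the TATA box TATAAA, the NKX2-5 core AAGTG, the M-CAT motif CATTCC of TEAD factors, the T-box factor motif GGTGTGA, the AP-1 motif TGANTCA, the CArG box and the MEF2 site. For Nppa and Gucy1b1 the 250 bases before the start site are printed, at chr4:148000472-148000721 on the plus strand and chr3:82074712-82074961 on the minus strand. For Nppb, 114 of the 250 bases lie inside the annotated span of the gene, which begins at 147985786. Only stretches of 30 bases are printed for it, at chr4:147985791-147985820 and chr4:147985857-147985886 on the plus strand. Both stretches, with their matches, lie inside that span.
Nppa: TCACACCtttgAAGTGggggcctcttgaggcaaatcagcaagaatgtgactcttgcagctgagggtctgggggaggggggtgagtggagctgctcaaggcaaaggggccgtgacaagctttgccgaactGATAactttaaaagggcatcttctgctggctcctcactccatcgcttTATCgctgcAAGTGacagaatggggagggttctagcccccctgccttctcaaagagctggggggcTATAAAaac
Nppb, around the M-CAT match: ggcaGGAATGcagctGATAaatcagaGATA
Nppb, around the TATA box: actcagccccagTATAAAaggcagaggcac
Gucy1b1: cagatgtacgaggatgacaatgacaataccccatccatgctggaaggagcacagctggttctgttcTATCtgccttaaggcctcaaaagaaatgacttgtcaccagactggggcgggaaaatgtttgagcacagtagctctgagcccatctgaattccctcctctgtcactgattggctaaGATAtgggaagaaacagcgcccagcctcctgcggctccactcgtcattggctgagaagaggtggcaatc
Within 250 bases, Nppa had 2 matches to GATA, 2 to AAGTG, 1 to GGTGTGA and 1 to TATAAA. Nppb had 2 matches to GATA, 1 to CATTCC and 1 to TATAAA, together with 5 to CACCC. The TATAAA of Nppb lay 31 to 26 bases before the start site of its window and that of Nppa 9 to 4 bases before its own. Gucy1b1 had 2 matches to GATA, 1 to the GC box GGGCGG and none to TATAAA. Such matches are common: of 32851 promoters of the same length, 53.6% held GATA, 40.7% AAGTG, 52% CACCC, 32.7% GGGCGG, 12.6% CATTCC, 12.4% TATAAA and 3.33% GGTGTGA. The CArG box, found in 1.47% of promoters, the MEF2 site, found in 2.92%, and TGANTCA, found in 6.75%, had no exact match in the windows of the 10 genes. Variants of the motifs that differ by a base were not searched, so a lack of matches does not exclude such sites. Gucy1a1 has 2 annotated starts, with 0 and 4 matches to GATA in their windows, and none to TATAAA in either. The matches describe the letters in these windows and say nothing of whether a factor was bound.

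**Figure D1:**
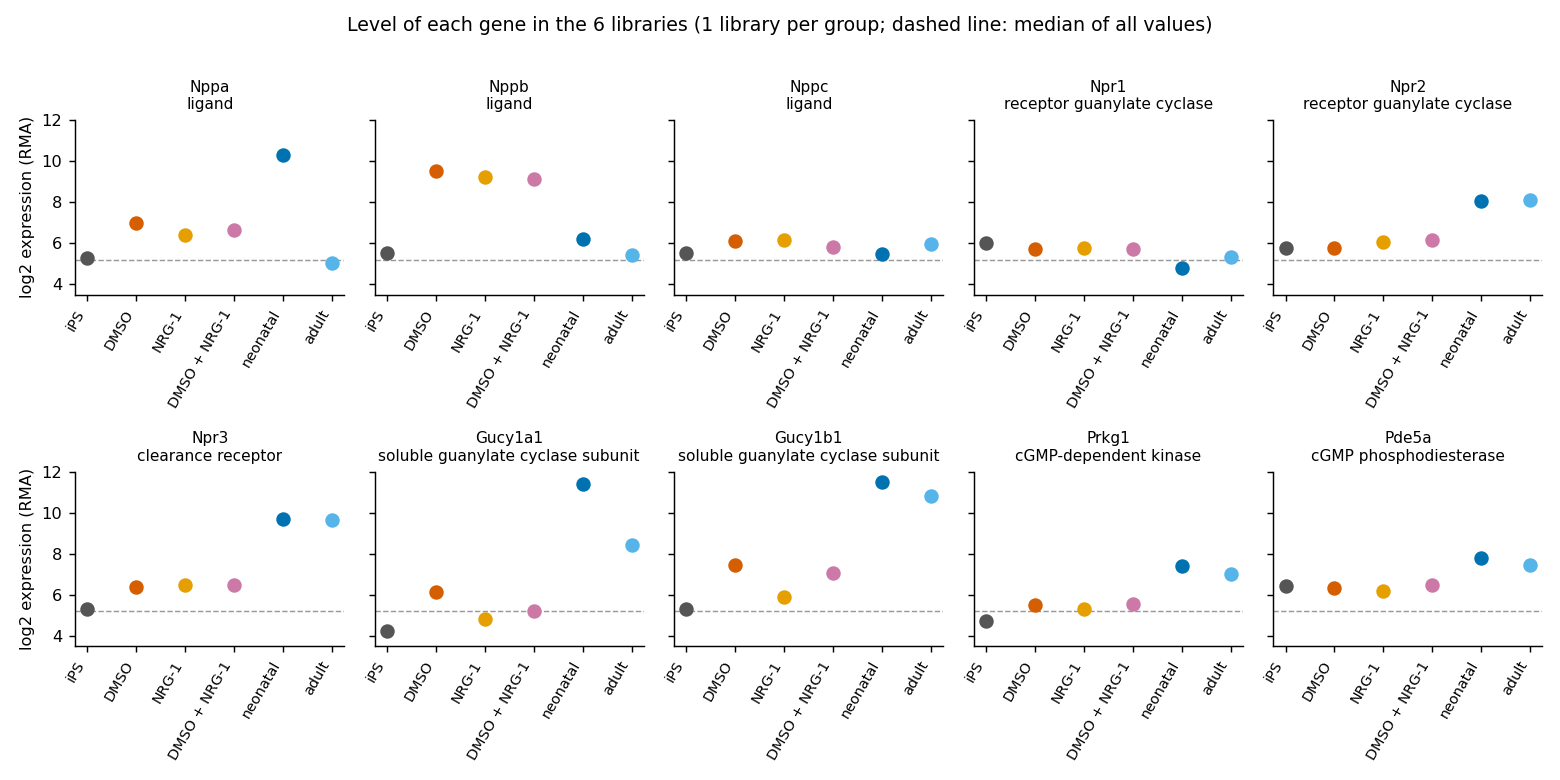
Log2 expression (RMA) of each of the 10 genes in the 6 libraries, 1 point per library; the dashed line is the median of all values, 5.20. Nppa stood highest in the neonatal library, Nppb in the 3 cultures, and Npr2, Npr3, Gucy1a1, Gucy1b1 and Prkg1 in both heart-derived libraries.

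The natriuretic peptide genes had separate patterns. Nppa, the atrial peptide, had a log2 expression of 5.29 in iPS cells, 6.97 with DMSO, 6.39 with NRG-1, 6.66 with both agents, 10.31 in the neonatal library and 5.06 in the adult library. The neonatal library thus stood apart from the other 5, and the adult library lay near iPS cells. The adult difference from iPS cells was -0.24, which became 0.30 with the housekeeping shift. Nppa was 32.4-fold higher in the neonatal library than in iPS cells, a log2 difference of 5.02, the 16th highest of 13582 genes. Between the heart-derived libraries it was 38.2-fold lower in the adult one (log2 difference -5.26), the second lowest of 13164 genes. Against the 3 cultures, it was 3.34 higher in the neonatal library than in the DMSO culture, the highest of the cultures. Log2 differences of the cultures from iPS cells were 1.68 with DMSO, 1.10 with NRG-1 and 1.36 with both agents.

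Nppb, the B-type peptide, was at 5.54 in iPS cells, 9.54 with DMSO, 9.21 with NRG-1, 9.14 with both agents, 6.19 in the neonatal library and 5.40 in the adult library. The 3 cultures were high and the other 3 libraries low, with a gap of 2.95 between the lowest culture and the neonatal library. Of the 10 genes, Nppb was the 1 with all 3 cultures at least 2-fold above the other 3 libraries, a pattern chosen after its values were seen and met by 2.63% of 14579 genes. Against iPS cells the differences were 4.0, 3.66 and 3.59, which is 16-fold, 12.7-fold and 12.1-fold, and these comparisons share the iPS library. They ranked 61st of 13741 genes with DMSO, 64th of 13763 with NRG-1 and 91st of 13696 with both agents. In the heart-derived libraries Nppb differed from iPS cells by 0.64 (neonatal) and -0.14 (adult), the latter being 0.40 with the housekeeping shift. These libraries are whole samples, so fewer cells of a type and less RNA per cell cannot be told apart in any of these differences.

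Nppc, the C-type peptide, which is known mainly from vessel wall, bone and brain, ranged over 0.66 on the log2 scale. It was at 5.54 in iPS cells, 6.13 with DMSO, 6.13 with NRG-1, 5.79 with both agents, 5.47 in the neonatal and 5.96 in the adult library. With the libraries ordered by level, no gap between neighbours exceeded the disagreement between probe sets of 1 gene in that pair of libraries. Some pairs further apart in level did exceed it, such as adult minus neonatal (0.49 against 0.34) and DMSO minus iPS (0.59 against 0.55). That disagreement was taken from genes with 2 probe sets, each of which gives its own log2 difference between the 2 libraries. It is the SD of the gap between these differences, divided by the square root of 2. The value was 0.20 to 0.60 over the library pairs, from 449 to 509 genes. It is the only error estimate here. It was 0.20 to 0.30 between cultures and 0.55 to 0.60 between cultures and iPS cells, so it cannot be taken as array error alone. The spread between samples of a group is not covered by it.

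Markers of other cell types differed along with the peptides. In the cultures, where Nppb was high, 7 of 10 epithelial markers were at least 2-fold above iPS cells in each culture, and 8, 9 and 9 of 12 yolk sac and liver endoderm markers with DMSO, NRG-1 and both agents. The keratin Krt19 was at 6.09 in iPS cells, 11.48 with DMSO, 11.01 with NRG-1, 11.23 with both agents, 7.61 in the neonatal and 6.45 in the adult library. The fetal serum protein Afp was at 4.76, 10.72, 11.48, 10.81, 4.99 and 4.89 in the same order. The summed epithelial level, as log2 of the sum over the list, was 10.79 in iPS cells, 13.71 to 13.83 in the cultures, 10.58 in the neonatal and 9.04 in the adult library. Cardiomyocyte markers were also higher in the cultures, 11 of 22 with DMSO, 8 with NRG-1 and 11 with both agents, and 17, 13 and 16 with the housekeeping shift. Of all genes, 13.1%, 11.3% and 13% were this much higher in the cultures, and 35.5%, 26.3% and 28.3% with that shift. Of 12 macrophage markers, 3 were at least 2-fold higher in each culture, Cd68, Csf1r and Cd14, and 8 or 9 lay below the median of all values there. Pluripotency markers were at least 2-fold lower than in iPS cells for 11 of 13 genes in each of the other 5 libraries. The neural list had 1 or 0 of 8 genes higher and 2 to 4 lower. The part of these cell types in the level of Nppb was not tested.

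The genes with profiles most like that of Nppb over the 6 libraries were Galnt3, a glycosyltransferase, Rnf128, a ubiquitin ligase, Dsc2, a desmosomal cadherin, Ets2, a transcription factor, and Foxa1, a transcription factor of endoderm. Likeness was measured as the root mean square (RMS) difference between profiles after each gene's own mean was subtracted, among 13338 genes. It was 0.234 log2 units for Galnt3, 0.234 for Rnf128 and 0.304 for Foxa1. Galnt3 was at 5.89 in iPS cells, 9.82 with DMSO, 9.39 with NRG-1, 9.48 with both agents, 5.86 in the neonatal and 5.48 in the adult library. No profile came as near to that of Nppa, for which the best were Selp, the adhesion receptor P-selectin of platelets and endothelium, at an RMS difference of 0.776, then Cda, Zim1, Pbp2 and Tmem255a. Selp was at 9.26 in the neonatal library and between 4.28 and 5.40 in the other 5. Of 6 measured platelet markers, 1 was at least 2-fold higher than in iPS cells and 0 lower in each of the other 5 libraries. It was Ppbp, a platelet chemokine, in the cultures and the neonatal library, and Pf4 in the adult one. Ppbp was at 4.67 in iPS cells, 9.55 with DMSO, 8.32 with NRG-1, 9.62 with both agents, 8.89 in the neonatal and 5.53 in the adult library. Pf4 was at 4.53 in the neonatal and 5.75 in the adult library. Nppb stood 13030th in the order of likeness to Nppa.

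The membrane receptors divided as well. Npr2, the receptor of the C-type peptide, was at 5.75 in iPS cells, 5.75 with DMSO, 6.06 with NRG-1, 6.15 with both agents, 8.05 in the neonatal and 8.12 in the adult library. Npr3, the clearance receptor, was at 5.33, 6.37, 6.51, 6.49, 9.70 and 9.65 in the same order. For both genes the heart-derived libraries were above the other 4 and did not differ from each other beyond the disagreement of probe sets (0.345). The difference from iPS cells was 2.29 (neonatal) and 2.36 (adult) for Npr2, or 4.90-fold and 5.14-fold. For Npr3 it was 4.37 and 4.31, or 20.7-fold and 19.9-fold, the 46th and 63rd highest of all genes past the filter. In the cultures Npr3 was higher than in iPS cells by 1.03 with DMSO, 1.17 with NRG-1 and 1.16 with both agents, and Npr2 by 0.00, 0.31 and 0.40.

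Npr1, the receptor of the atrial and B-type peptides, was at 5.99 in iPS cells, 5.74 with DMSO, 5.79 with NRG-1, 5.74 with both agents, 4.80 in the neonatal library and 5.34 in the adult library. It was lowest in the neonatal library, where its ligand gene Nppa was highest, and the difference from iPS cells was -1.19. With the housekeeping shift this difference was -0.53, under 2-fold. Npr1 was the only member with more than 1 probe set, and its 2 probe sets differed in course. One was at 5.31 in iPS cells, 5.5 with DMSO, 5.17 with NRG-1, 5.12 with both agents, 4.61 in the neonatal and 5.30 in the adult library, and the other at 6.67, 5.98, 6.41, 6.37, 5.00 and 5.37. Both were lowest in the neonatal library, but the adult library lay beside iPS cells on the former and well below them on the latter.

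Profiles most like that of Npr3 were those of Tgfb3, a growth factor (RMS difference 0.197), Axl, a receptor tyrosine kinase (0.223), Ehd2, Antxr1 and Col1a2, a chain of fibrillar collagen (0.271). Col1a2, itself on the fibroblast list, was at 7.15 in iPS cells, 8.48 with DMSO, 8.17 with NRG-1, 8.22 with both agents, 10.97 in the neonatal and 11.65 in the adult library. For Npr2 the nearest were Scarf2 (0.129), Nfic, Tns2, Klhl5 and Itgb5, an integrin subunit. These profiles share the 6 libraries and the split between heart-derived and iPS-line samples, so the likeness is a description.

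Both subunits of soluble guanylate cyclase had their highest levels in the heart-derived libraries, and the alpha subunit gene had the largest neonatal increase over iPS cells of any gene past the filter. Gucy1a1, the alpha subunit, was at 4.23 in iPS cells, 6.12 with DMSO, 4.82 with NRG-1, 5.24 with both agents, 11.38 in the neonatal and 8.42 in the adult library. Gucy1b1, the beta subunit, was at 5.30, 7.46, 5.88, 7.06, 11.48 and 10.82 in the same order. The order of the libraries was the same for both genes, with iPS cells lowest and the neonatal library highest. The step from iPS cells to the NRG-1 culture, 0.58 for each gene, was within the disagreement of probe sets for that pair, 0.60. Every other step in the order exceeded the disagreement of its own pair of libraries.

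Gucy1a1 was 142-fold higher in the neonatal library than in iPS cells (log2 difference 7.15), rank 1 of 13582 genes, and Gucy1b1 was 72.8-fold higher (6.19), rank 8. In the adult library the differences from iPS cells were 4.18 for Gucy1a1 and 5.52 for Gucy1b1, the 73rd and 11th highest of 13760 genes. The subunits thus parted between the heart-derived libraries: the adult minus neonatal difference was -2.96 for Gucy1a1, the 15th lowest of 13164 genes, and -0.66 for Gucy1b1. The iPS value of Gucy1a1 lay below the median of all values, 5.20, so its fold differences from iPS cells rest on a dim signal. The iPS values of Nppa (5.29), Gucy1b1 (5.30) and Npr3 (5.33) lay just above that median, so the same limit holds for them. Gucy1b1 had the profile nearest to that of Gucy1a1 of 13338 genes, at an RMS difference of 0.712, followed by Cxcl12, a chemokine, Calcrl, the receptor shared by CGRP and adrenomedullin, Sema3d and Tm4sf1. From the side of Gucy1b1 the nearest were Adamts5, a matrix protease (0.480), Calcrl (0.482), Lrrc32, Piezo2 and Lbh, and Gucy1a1 was 18th.

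The kinase and phosphodiesterase genes followed the heart-derived libraries at smaller size. Prkg1, the kinase that relaxes smooth muscle in response to cGMP, was at 4.75 in iPS cells, 5.51 with DMSO, 5.29 with NRG-1, 5.55 with both agents, 7.40 in the neonatal and 7.01 in the adult library. Pde5a, the cGMP-degrading enzyme that sildenafil blocks, was at 6.42, 6.36, 6.17, 6.48, 7.78 and 7.43 in the same order. Differences from iPS cells were 2.65 (neonatal) and 2.27 (adult) for Prkg1, and 1.36 and 1.01 for Pde5a. The iPS value of Prkg1 lay below the median of all values, so its differences from iPS cells rest on a dim signal. With the 4 libraries of the iPS line ordered by level, no step between neighbours exceeded the disagreement of probe sets for Pde5a. The difference of both agents from NRG-1 alone, 0.306, was just above it (0.299). Fhl1, a LIM protein of striated muscle and a member of the load response list below, had the profile nearest to Prkg1, at an RMS difference of 0.0852, with 7.41 in iPS cells, 8.34 with DMSO, 8.04 with NRG-1, 8.47 with both agents, 10.20 in the neonatal and 9.71 in the adult library. Next came Csgalnact2 (0.0923), Pear1, a platelet and endothelial receptor, Ces2g and Acsl5.

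Counted over the set, 7 of the 10 members were higher by 2-fold or more and 1 was lower in the neonatal library than in iPS cells, against 13% and 11.2% of all genes past the filter (24.2% in either direction). In the adult library 6 were higher and 0 lower, against 13.1% and 14.1% (27.2% in either direction). A gene passed the filter where the higher of its values in the pair reached the median of all values, and all 10 did in these comparisons. Since the set was chosen with such differences known, nothing is read from these counts. The median difference of the 10 genes was 2.47 in the neonatal and 1.64 in the adult library, beside -0.04 and -0.02 over all genes. With the housekeeping shift, which raised all genes by 0.66 (neonatal) and 0.54 (adult) relative to iPS cells, the counts were 8 higher and 0 lower, and 6 and 0, against 30.4% and 4.33%, and 26.4% and 6.42% of all genes.

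Both heart-derived libraries were at least 2-fold above the other 4 for 5 of the 10 genes, Npr2, Npr3, Gucy1a1, Gucy1b1 and Prkg1, a pattern chosen after the values were seen that 3.28% of 14579 genes met. The gap between the lower heart-derived library and the highest of the other 4 was 1.89 for Npr2, 3.14 for Npr3, 2.30 for Gucy1a1, 3.36 for Gucy1b1 and 1.47 for Prkg1. Pde5a missed the threshold, with a gap of 0.95. Between the adult and neonatal libraries 0 members were at least 2-fold higher and 2 lower, Nppa and Gucy1a1, against 2.52% and 2.92% of all genes (5.45% in either direction).

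**Figure D2:**
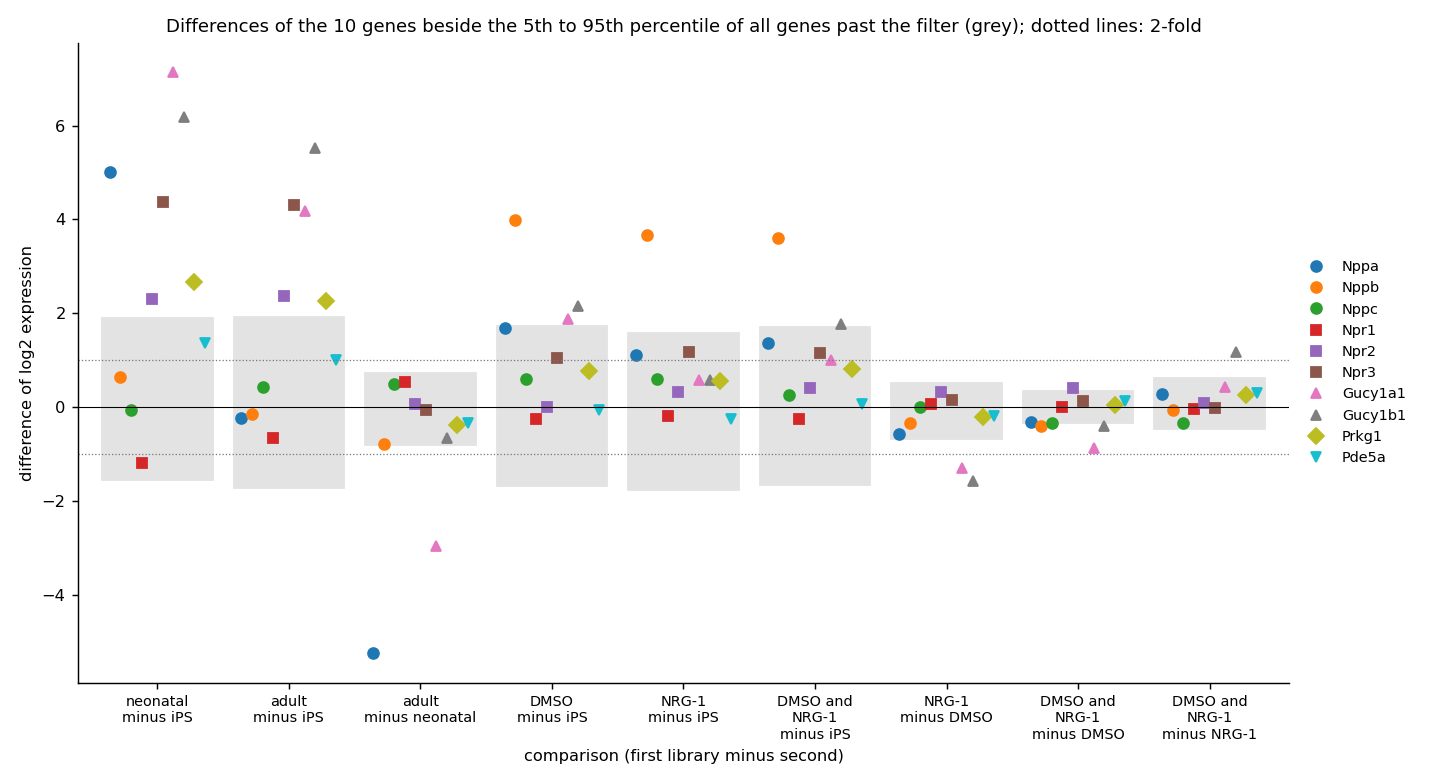
Difference of log2 expression for each of the 10 genes in the 9 comparisons; grey bars span the 5th to 95th percentile of all genes past the filter in that comparison, and dotted lines mark 2-fold. Gucy1a1 (7.15), Gucy1b1 (6.19) and Nppa (5.02) lay farthest above the grey bar in the neonatal library, Nppb in the cultures, and Gucy1a1 and Gucy1b1 below it for NRG-1 against DMSO.

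Fibroblast and smooth muscle markers had their highest summed levels in the same libraries as these 5 genes. The endothelial and macrophage sums were highest in the cultures, where Cd68 made up 77.3% to 81.0% of the macrophage sum. The summed fibroblast level, as log2, was 11.84 in iPS cells, 13.53 with DMSO, 13.25 with NRG-1, 13.50 with both agents, 14.95 in the neonatal and 15.50 in the adult library. The summed smooth muscle and pericyte level was 11.84, 12.48, 12.07, 12.49, 14.15 and 14.26 in the same order. Of the 14 genes on that list, 7 were higher by 2-fold or more and 1 lower in the neonatal library than in iPS cells, and 5 and 0 in the adult library. The shares of all genes in these libraries were 13% and 13.1% higher, and 11.2% and 14.1% lower. In the cultures 13.1%, 11.3% and 13% of all genes were higher with DMSO, NRG-1 and both agents. With the housekeeping shift the smooth muscle and pericyte counts were 11 and 0, and 9 and 0. The higher genes in the cultures went from 1, 1 and 2 to 7, 3 and 7 with DMSO, NRG-1 and both agents. With that shift, 30.4% and 26.4% of all genes were higher in the neonatal and adult libraries, and 35.5%, 26.3% and 28.3% in the cultures. Acta2, smooth muscle actin, made up 51.8% to 69% of that sum. Pdgfrb, a receptor of pericytes and fibroblasts, was at 6.0 in iPS cells, 6.24 with DMSO, 5.72 with NRG-1, 6.45 with both agents, 10.03 in the neonatal and 10.44 in the adult library. Myh11, the myosin that defines smooth muscle, was at 5.80, 5.61, 5.96, 5.77, 6.34 and 6.19. Endothelial markers went both ways, 4 of 14 higher and 2 lower in the neonatal library and 4 and 1 in the adult. With the housekeeping shift the endothelial counts were 5 and 1, and 4 and 1. Pecam1 was at 8.58 in iPS cells, 6.38 in the neonatal and 6.63 in the adult library. Of the macrophage markers, 2 of 12 were at least 2-fold above iPS cells in the neonatal and 7 in the adult library (5 and 9 with the housekeeping shift), among them Lyz2 at 4.29 in iPS cells, 5.98 in the neonatal and 8.24 in the adult library. Summed cardiomyocyte markers were led by Atp2a2, the calcium pump, which made up 38.3% to 61.6% of the sum and ranged over 0.116. Without it the log2 sum of the other 21 was lowest in iPS cells, then 10.26 in the adult library, 11.18 with NRG-1, 11.20 in the neonatal library, 11.40 with DMSO and 11.48 with both agents. The part of these cell types in the levels of the 5 genes was not tested.

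**Figure D3:**
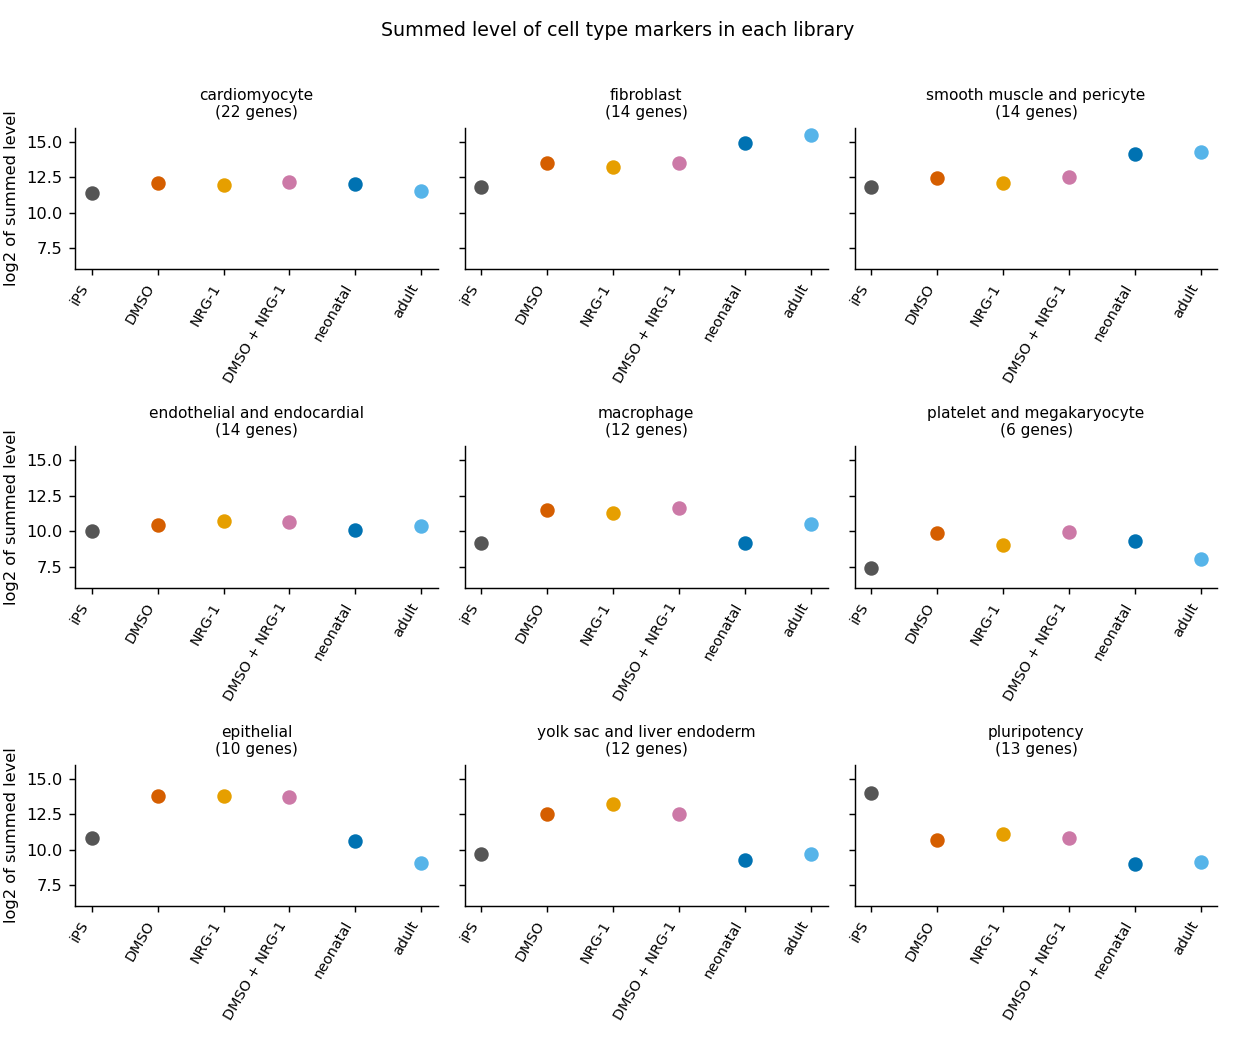
Log2 of the summed linear level of each cell type marker list in the 6 libraries, 1 point per library; the number of genes summed is above each panel. Fibroblast and smooth muscle markers were highest in the heart-derived libraries (14.15 to 15.50), epithelial and yolk sac markers in the 3 cultures, and the cardiomyocyte sum (11.38 to 12.18) was led by Atp2a2, which ranged over 0.116.

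Against iPS cells, the cultures had 5 of the 10 genes at least 2-fold higher with DMSO, 3 with NRG-1 and 5 with both agents, and 0 lower in each. The shares of all genes that were higher were 13.1%, 11.3% and 13%, and lower 13.3%, 14.5% and 13.1%, or 26.4%, 25.8% and 26.1% in either direction. With DMSO the 5 were Nppa, Nppb, Npr3, Gucy1a1 and Gucy1b1, and with both agents the same 5, with Gucy1a1 at 1.00, on the threshold. With NRG-1 they were Nppa, Nppb and Npr3, and Gucy1a1 was below the filter in that pair, so 9 genes could be counted. Npr1 differed from iPS cells by -0.25 with DMSO, -0.20 with NRG-1 and -0.25 with both agents, and Pde5a by -0.06, -0.25 and 0.06, and all of these but the last turned in sign with the housekeeping shift. That shift raised all genes by 0.72, 0.54 and 0.56 relative to iPS cells and gave 7, 6 and 6 higher members and 0 lower ones. It gave 35.5%, 26.3% and 28.3% of all genes as higher, and 4.5%, 6.97% and 5.8% as lower.

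NRG-1 in place of DMSO was compared to see how the agents differ. No member was higher by 2-fold or more with NRG-1 and 2 were lower, the soluble guanylate cyclase subunits, against 0.36% and 1.78% of 13343 genes (2.14% in either direction). Gucy1b1 was at 7.46 with DMSO and 5.88 with NRG-1, a difference of -1.58 (3.0-fold), the 43rd lowest. Gucy1a1 was at 6.12 and 4.82, a difference of -1.30 (2.5-fold), the 93rd lowest. The disagreement of probe sets between these libraries was 0.30. The peptide genes differed by -0.58 (Nppa), -0.33 (Nppb) and 0.00 (Nppc), and the receptors by 0.05 (Npr1), 0.31 (Npr2) and 0.14 (Npr3), of which Npr1, Npr3 and Nppc have no settled sign, since the housekeeping shift of -0.19 turned them.

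Where NRG-1 was added to DMSO, the cultures were nearly alike. Against DMSO alone 0 of the 10 members passed 2-fold in either direction. Of 13198 genes, 0.0455% were higher by that much and 0.053% lower, 0.0985% together. Gucy1a1 differed most of the members, at 6.12 with DMSO and 5.24 with both agents, a difference of -0.88 that was the 15th lowest and larger than the probe set disagreement of 0.20. Gucy1b1 and Nppb differed by -0.40 each, Nppc by -0.34 and Npr2 by 0.40. Against NRG-1 alone, Gucy1b1 was 2.3-fold higher with both agents (difference 1.18), the 80th highest of 13303 genes, and it was the 1 member past 2-fold, with 0 lower, against 1.08% and 0.293% of all genes (1.38% in either direction). Gucy1a1 was higher by 0.42 and Nppb differed by -0.07. These 3 comparisons share libraries in pairs and are not independent.

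Fibroblast and muscle markers also differed between the cultures. With NRG-1 against DMSO, 2 of 14 fibroblast markers and 3 of 22 cardiomyocyte markers were at least 2-fold lower and 0 and 1 higher, and with the housekeeping shift 5 and 5 lower and 0 higher. Of all genes, 1.78% were lower and 0.36% higher, and 3.09% and 0.157% with that shift. Lox, a matrix cross-linking enzyme on the fibroblast list, was at 8.70 with DMSO, 7.46 with NRG-1 and 8.34 with both agents, and Ppbp was at 9.55, 8.32 and 9.62. The smooth muscle gene Acta2 was at 11.82, 11.12 and 11.85, with 0 of 14 markers of that list past 2-fold. Their part in the values of Gucy1a1 and Gucy1b1 was not tested.

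The rest of the pathway was read from 8 lists, which were drawn up with earlier results of these libraries known. Against iPS cells, 11.3% to 13.1% of all genes were at least 2-fold higher and 11.2% to 14.5% lower in the other libraries. With the housekeeping shift these shares were 26.3% to 35.5% and 4.33% to 6.97%. A list count near these shares is not read as a change of the pathway. Of 8 genes that process or degrade the peptides, 1 was at least 2-fold higher and 3 lower in the neonatal library than in iPS cells, 1 and 2 in the adult library, and 1 and 4 in each culture. The higher one was Furin, a protease that cleaves the B-type precursor, at 7.23 in iPS cells and 8.71 to 9.0 in the other 5 libraries. Mme, neprilysin, which degrades natriuretic peptides, was at 9.17 in iPS cells, 7.55 with DMSO, 7.42 with NRG-1, 7.67 with both agents, 6.40 in the neonatal and 6.02 in the adult library. The insulin-degrading enzyme Ide and the peptidase Dpp4 were also lower, Dpp4 by a difference of -2.88 with DMSO, -3.37 with NRG-1 and -3.28 with both agents. Corin, the protease of heart muscle that activates the atrial peptide, was at 5.43 in iPS cells, 6.32 with DMSO, 5.84 with NRG-1, 6.11 with both agents, 5.82 in the neonatal and 5.74 in the adult library. It was under 2-fold from iPS cells as deposited, but with the housekeeping shift the differences were 1.61 with DMSO, 1.24 with both agents and 1.05 in the neonatal library. With the housekeeping shift the counts were 2 higher and 1 lower with DMSO and with both agents and in the neonatal library, and 1 and 2 in the others.

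Of 14 measured genes of nitric oxide synthesis, 2 were at least 2-fold higher in the neonatal library and 3 in the adult, with 0 lower in either. The shares of all genes that were higher were 13% and 13.1%. Cav1, caveolin 1, which binds endothelial nitric oxide synthase, was at 5.97 in iPS cells, 7.13 with DMSO, 6.34 with NRG-1, 6.82 with both agents, 8.01 in the neonatal and 7.62 in the adult library. Ddah1, which removes a natural inhibitor of the synthases, was higher than in iPS cells by 1.52 and 1.56 in the neonatal and adult libraries and by 0.01, -0.02 and 0.17 in the cultures. Arg1, an arginase that uses up the same substrate, was at 5.51 in iPS cells, 5.76 in the neonatal and 9.54 in the adult library, where the macrophage markers were also higher. Nostrin, which binds the endothelial synthase, was higher in the cultures, by 2.12, 2.65 and 2.29. Nos3, the endothelial synthase itself, was at 6.29 in iPS cells, 6.20 with DMSO, 6.02 with NRG-1, 6.31 with both agents, 5.68 in the neonatal and 6.11 in the adult library. The counts in the cultures were 3 higher and 1 lower with DMSO and 1 and 1 with NRG-1 and with both agents, and with the housekeeping shift 4 and 0, 4 and 1, and 5 and 0.

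Among 11 other guanylate cyclases, their peptides and activators, Gucy1a2, the other alpha subunit of the soluble enzyme, was the 1 gene at least 2-fold apart in a comparison with iPS cells as deposited. It was at 5.47 in iPS cells, 5.63 with DMSO, 5.34 with NRG-1, 5.51 with both agents, 7.11 in the neonatal and 6.99 in the adult library. The differences of 1.64 and 1.52 followed the same 2 libraries as Gucy1a1 and Gucy1b1. With the housekeeping shift, Gucy2c, the receptor of the gut peptide guanylin, was also higher with NRG-1 (1.51) and with both agents (1.05), and Guca1b with NRG-1 (1.03). In each heart-derived library 8 of the 11 genes lay below the median of all values.

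Of 17 measured genes on the list of kinase 2 and the kinase substrates, 6 were at least 2-fold higher and 1 lower in the neonatal library, 3 and 0 in the adult, and 4, 3 and 3 higher with DMSO, NRG-1 and both agents. With the housekeeping shift the higher genes numbered 10, 8, 6, 6 and 5 in the same order, with 0 lower. Kcnmb1, the smooth muscle subunit of the calcium-activated potassium channel, was at 5.22 in iPS cells, 5.47 with DMSO, 5.12 with NRG-1, 5.5 with both agents, 8.31 in the neonatal and 7.74 in the adult library. Mrvi1 (Irag1), which links the kinase to calcium release, was at 4.96 in iPS cells, 6.43 in the neonatal and 5.66 in the adult library. Pln, phospholamban, the brake on the calcium pump of heart muscle, was at 4.32 in iPS cells, 6.29 with DMSO, 5.58 with NRG-1, 6.26 with both agents, 7.13 in the neonatal and 4.59 in the adult library, so that it stood with Nppa among the genes low in the adult library. Rgs4, a regulator of G protein signalling, was higher in the cultures, by 2.20, 2.73 and 2.08. Ppp1r12b, a myosin phosphatase subunit, was higher by 2.24 in the neonatal library and by 0.86 in the adult. Kcnma1, the pore of the same potassium channel, differed by -1.69 in the neonatal and 0.80 in the adult library, and Csrp2, a LIM protein of smooth muscle, by -0.94 and 0.66.

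Among 15 other genes on the list of cGMP phosphodiesterases and their subunits, 2 were at least 2-fold higher and 1 lower in the neonatal library, and 4 and 1 in the adult. Pde1a, which is switched on by calcium and calmodulin, was at 4.28 in iPS cells, 4.96 with DMSO, 4.23 with NRG-1, 4.49 with both agents, 8.12 in the neonatal and 8.16 in the adult library. Pde3a, which cGMP inhibits, was at 5.27, 6.13, 6.03, 6.21, 7.96 and 8.23 in the same order. Its paralogue Pde3b was at 6.70 in iPS cells, 4.20 with DMSO, 4.10 with NRG-1, 3.97 with both agents, 6.98 in the neonatal and 7.88 in the adult library, so the cultures alone stood low. Pde9a was lower than in iPS cells in all 5 other libraries, by differences from -0.95 to -1.34, which the housekeeping shift reduced. The cultures had 0 higher and 2, 1 and 2 lower, and with that shift 2, 1 and 2 higher and 1 lower in each. Of 11 measured cGMP-gated channels and exporters, 0 were at least 2-fold higher in any library than in iPS cells as deposited, and with that shift the exporter Abcc5 was, with DMSO (1.08) and NRG-1 (1.0). Cnga3 was lower with DMSO (-1.19), NRG-1 (-1.15) and both agents (-1.26) and in the adult library (-1.08), and the exporter Abcc4 in the adult library (-1.22). None of these was past 2-fold with the shift.

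Of 21 measured transcription factors known to act on Nppa or Nppb, 7 were at least 2-fold higher and 3 lower in the neonatal library, 5 and 3 in the adult, 6 and 3 with DMSO, and 7 and 3 with NRG-1 and with both agents. Gata4, a zinc finger factor of heart and endoderm, was at 6.04 in iPS cells, 8.82 with DMSO, 9.35 with NRG-1, 9.16 with both agents, 8.27 in the neonatal and 8.14 in the adult library. Gata6 was higher by 2.52, 2.68, 2.79, 2.12 and 1.53 in the same 5 libraries. Tbx20 was at 5.66 in iPS cells, 7.07, 6.96 and 7.10 in the cultures, 10.12 in the neonatal and 10.81 in the adult library. Nkx2-5, the cardiac homeobox factor, stayed between 6.47 and 7.19 in all 6 libraries, and Tbx5 was at 4.97 in iPS cells, 6.20 in the neonatal and 5.53 in the adult library. The repressor genes Tbx3 and Jarid2 were lower than in iPS cells in all 5 libraries, Jarid2 by -3.56 and -3.67 in the heart-derived ones. Rest, the remaining factor counted as lower, was at 8.69 in iPS cells and 7.10 to 7.25 in the other 5 libraries. Between the heart-derived libraries 0 of the 21 factors were at least 2-fold higher in the adult one and 1 was lower. It was Hey2, at 7.57 in the neonatal and 6.01 in the adult library. With the housekeeping shift the counts against iPS cells were 11 to 13 higher and 2 to 3 lower.

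Of 13 measured load and hypertrophy response genes, 7 were at least 2-fold higher in each heart-derived library and 9, 8 and 10 with DMSO, NRG-1 and both agents, with 1 lower in the neonatal library and 0 elsewhere. Ankrd1, a muscle protein induced by stretch, was at 7.53 in iPS cells, 11.26 with DMSO, 10.30 with NRG-1, 11.14 with both agents, 12.84 in the neonatal and 12.73 in the adult library. Edn1, the endothelin 1 gene, was at 5.02, 9.43, 9.29, 9.16, 9.94 and 10.06 in the same order. Adm, the vasodilator adrenomedullin, was higher than in iPS cells by 4.10, 3.29 and 3.91 in the cultures, 4.87 in the neonatal and 4.17 in the adult library. Ccn1 and Ccn2, matrix proteins induced by stretch and growth factors, were higher in all 5 libraries, Ccn1 by 2.34 to 2.89. Unlike Nppa and Nppb, these 5 genes were thus high in the cultures and in both heart-derived libraries alike. The skeletal actin Acta1 was at 7.93 in iPS cells, 9.07, 9.81 and 9.11 in the cultures, 6.75 in the neonatal and 7.60 in the adult library.

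**Figure D4:**
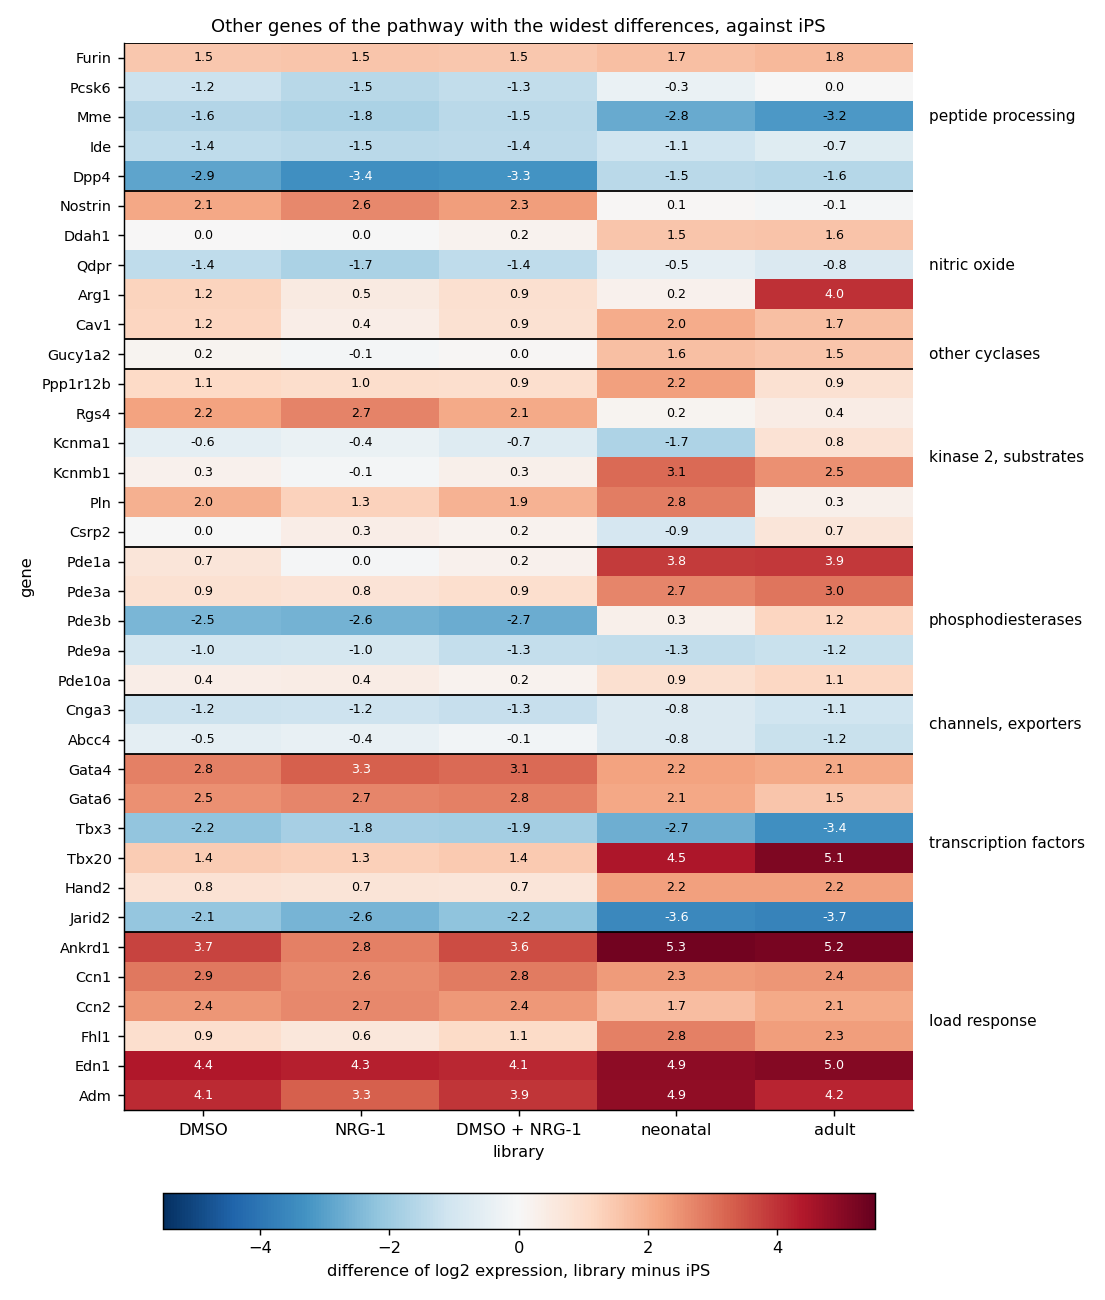
Difference of log2 expression from iPS cells for the pathway genes named by the rule, with the 5 other libraries as columns and the lists as blocks; the number in each cell is the difference, red higher and blue lower. Kcnmb1, Pde1a and Tbx20 were high in the heart-derived libraries, Nostrin and Rgs4 in the cultures, and Ankrd1, Edn1 and Adm in all 5 libraries.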

How the data were processed

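One RNA sample per group was labelled from total RNA and hybridised to 1 Affymetrix Mouse Gene array. The deposited table holds log2 values for 41345 probe sets made by the authors with RMA (background correction, quantile normalization and probe summarization), per the submitters' processing notes, which give no version. Library medians were 5.13 to 5.26, and the genome build is not given in the sources used here. Platform annotation named 1 gene for 23521 probe sets, several for 1814 and none for 16010. A gene's value is the mean over its probe sets (22180 genes).

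Differences are log2 values of 1 library minus another. A gene was counted where the higher value of the pair reached the median of all values (5.20), and was called at 2-fold or more. The 10 genes and the 19 gene lists (243 of 259 entries measured) were chosen with earlier results of these data known. Up to 6 genes per pathway list and 4 per marker list were named by the size of their differences. Likeness of profile named 5 genes for each gene with a range of at least 2. Mrvi1, Corin, Nos3, Nkx2-5, Tbx5, Rest, Hey2, Acta1, Gucy2c, Guca1b, Abcc5, Csf1r, Cd14, Atp2a2, Myh6 and Myh11 were chosen after their values were seen. The steps were tested on simulated data. Python 3.11.15, pandas 2.3.3, R 4.3.3 and limma 3.58.1 (cyclic loess) were used. The number of arrays limits the precision.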

Additional observations from a re-analysis of the deposited data

How the results depend on the processing

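The counts of genes at least 2-fold apart were recomputed without the filter and with a filter at the 75th percentile (6.93). They were also recomputed with the brightest probe set, after cyclic loess, after the housekeeping shift, and at 1.5-fold and 4-fold. Counts moved beyond 1.5 times as follows. The adult against the neonatal library gave 4 at 1.5-fold (2 as reported). Against iPS cells, DMSO gave 3 with the stricter filter and 2 at 4-fold (5 as reported). NRG-1 gave 1 with that filter, 6 with the housekeeping shift and 1 at 4-fold (3 as reported), and both agents gave 2 and 1 (5 as reported). NRG-1 against DMSO gave 1 with the filter and 0 at 4-fold (2 as reported). Both agents against DMSO gave 1 with the housekeeping shift and 1 at 1.5-fold (0 as reported), and against NRG-1 gave 0 at 4-fold (1 as reported). Genes with both heart-derived libraries above the other 4 numbered 3 at 4-fold (5 as reported). This pattern, that of the cultures and the marker sum without its brightest gene were added after the data were seen. A stricter filter or threshold counts fewer genes by construction. The housekeeping shift raised all genes by 0.54 to 0.72 relative to iPS cells, which adds to the higher genes by construction. For both agents against DMSO it lowered all genes by 0.16. Cyclic loess kept the sign of 87 of 90 differences of single genes and moved none by more than 0.113; the housekeeping shift kept 73 of 90, and no call changed sign. No paired analysis was possible because each group has 1 library, and for the same reason no replicate could be left out.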

Other observations

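The neighbours of the genes in the RefSeq order give values that belong to no comparison above. Nppb and Nppa are adjacent, and Clcn6, the next gene beyond Nppa, was highest in iPS cells (8.87) and lowest in the neonatal library (6.97), where Nppa was highest. Plod1, the second gene on the other side of Nppb, was at 7.77 in iPS cells, 9.0 with DMSO, 8.90 with NRG-1, 9.21 with both agents, 8.55 in the neonatal and 9.26 in the adult library. Gucy1b1 and Gucy1a1 are adjacent as well, and Asic5 and Tdo2, beyond Gucy1b1, ranged over 0.352 and 0.516 on the log2 scale across the 6 libraries, at levels below the median of all values in each. Npy2r and Map9, beyond Gucy1a1, ranged over 0.583 and 0.643. Dkk1, a Wnt antagonist next to Prkg1, was at 6.04 in iPS cells, 5.96 with DMSO, 6.01 with NRG-1, 6.02 with both agents, 4.76 in the neonatal and 5.30 in the adult library.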
